A study of Homo sapiens with 9 samples.

Results

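Respiratory chain genes encode the electron-transferring complexes I to IV of the inner mitochondrial membrane and the ATP synthase, complex V. The members were taken by symbol from the deposited expression table: protein-coding genes whose symbols start with MT-ND, MT-CO, MT-CYB, MT-ATP, NDUFA, NDUFB, NDUFC, NDUFS, NDUFV, UQCR, COX4 to COX8 or ATP5, together with SDHA, SDHB, SDHC, SDHD and CYC1. This gave 111 of the 54562 genes in the table, 13 of them encoded by mitochondrial DNA and 98 by nuclear DNA. The nuclear genes were 87 subunits, 8 assembly factors of complex I (the NDUFAF genes), the ATP synthase inhibitor ATP5IF1 and 2 readthrough genes that join a subunit gene to its neighbour. NDUFA7 met the name rule and was not analysed here.

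Electrons from NADH enter the chain at complex I and those from succinate at complex II, and both pass through ubiquinone to complex III and through cytochrome c to complex IV, which reduces oxygen. The proton gradient built on the way drives complex V. Complexes I, III, IV and V combine proteins made inside the mitochondrion with proteins imported from the cytosol, whereas complex II is wholly nuclear-encoded. Mitochondrial DNA is transcribed as long RNAs from both strands, which are cut at the tRNAs, and most of the mRNAs are then polyadenylated. Thus the mRNAs of the 2 genomes are made by separate machineries.

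The RNA came from HEK293, an established line of human embryonic kidney origin, collected 48 hours after transient transfection with Lipofectamine in medium with serum. The cells received the empty vector (EV), the ADARB1 isoform without its Alu exon (Short) or the isoform with it (Long), both from pCMV6 plasmids, in which the CMV promoter drives expression. ADARB1 encodes the RNA editing enzyme ADAR2. Each group had 3 libraries, which came from 3 cell passages, and the replicate number was used as the passage. The 9 libraries are thus of 1 cell line with transient overexpression. The RNA was converted to stranded poly(A) libraries, and the values are FPKM, in which the fragments of a gene are divided by its length and by the size of the library. ADARB1 measured 7.66 to 8.61 FPKM in EV, 1889 to 4145 in Short and 1695 to 3449 in Long, as the labels say. Of the HEK293 markers, VIM averaged 151 FPKM, KRT8 191, KRT18 87.1, NEFM 60.8 and PAX2 2.47, and PTPRC, ALB, HBB, MYH7, ACTC1 and CKM, which mark other cells, averaged at most 0.221. LHX1 and NEFL were also on the list of HEK293 markers and were not found by symbol. Fragment counts were not analysed here, so absolute depth is unknown. Relative to EV in passage 1, the most common ratio among 571 to 639 genes with very low values gave depths of 0.997 to 1.20, with 22.5% to 46.1% of those genes at that ratio.

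The 79 nuclear-encoded subunits with a mean of at least 1 FPKM had a median of 136 FPKM over the 9 libraries, against 11.6 for all 13801 genes above that minimum. Complex IV had the highest median, 228 FPKM over 12 subunits, followed by complex V with 187 over 17, complex III with 154 over 10, complex I with 95.5 over 36 and complex II with 90.3 over 4. COX7C, a small accessory subunit of complex IV, was the highest with 553 FPKM, and NDUFA5, an accessory subunit in the peripheral arm of complex I, was the lowest with 31.5. Within the other complexes the range was from 57.5 (UQCRC2) to 301 (UQCRQ) in complex III and from 57.6 (ATP5F1D) to 521 (ATP5MF) in complex V. NDUFA13 led complex I with 300.2 FPKM. In complex II, the flavoprotein SDHA averaged 133, the iron-sulfur protein SDHB 98.3, and the membrane anchors SDHC and SDHD 82.3 and 61.1. CYC1, cytochrome c1 of complex III, averaged 102. Subunits of 1 complex therefore differed in mRNA level by up to about an order of magnitude.

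**Figure D1:**
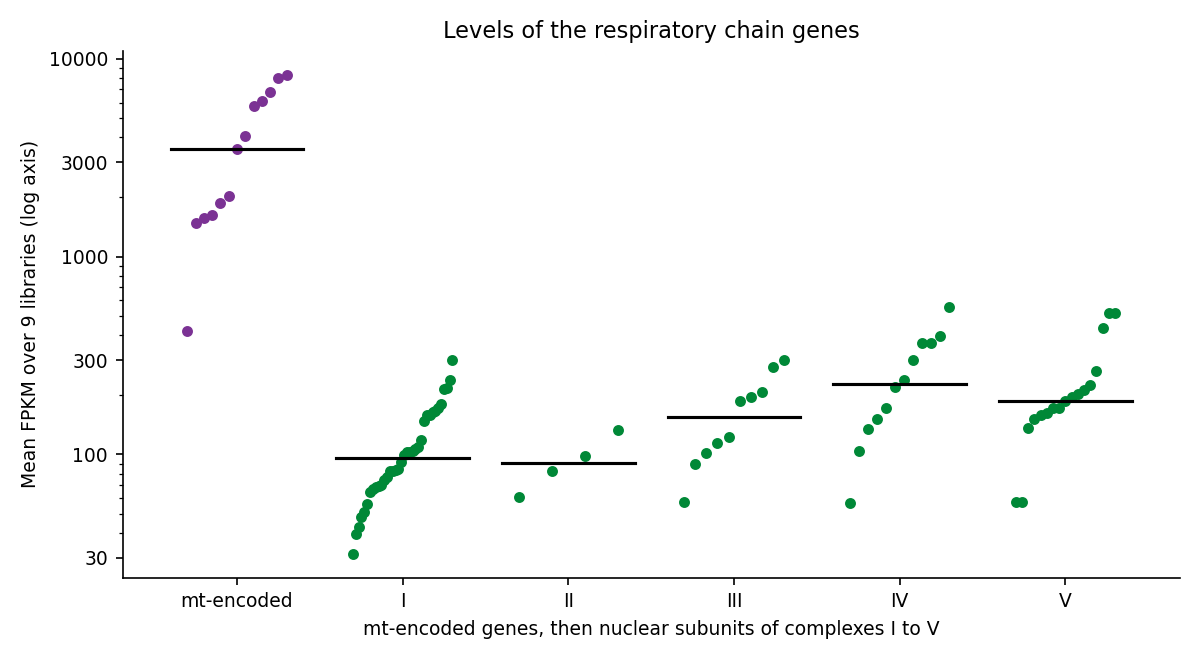
Mean FPKM over the 9 libraries (log axis) of each mitochondrial-encoded gene (purple) and each tested nuclear-encoded subunit of complexes I to V (green), with the median of each class as a black line. The 13 mitochondrial-encoded genes have a median of 3489 FPKM, and the nuclear-encoded subunits a median of 136.

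Several complex IV subunits exist in forms that differ between tissues, and HEK293 cells had almost only 1 form of each. COX4I1 averaged 364 FPKM, COX6A1 302, COX6B1 396, COX7A2 237, COX7B 172, COX8A 367 and NDUFA4 135. Their counterparts were far lower. COX4I2, COX6A2 and COX7A1 were listed at 0 in every library, COX8C averaged 0.0943 FPKM, COX7B2 0.0503, COX6B2 0.337 and NDUFA4L2 0.592. COX6A2 and COX7A1 are the heart and muscle forms, and COX6B2, COX7B2 and COX8C are known from testis. ATP5MGL, a copy of an ATP synthase gene, averaged 0.0150 FPKM. These 8 genes were below the minimum and were not tested, which left 103 members. UQCRH and its copy UQCRHL, listed at 207 and 186 FPKM, are nearly identical in sequence, so fragments may have been divided between them, and the readthrough genes (6.04 FPKM for NDUFC2-KCTD14 and 4.83 for ATP5MF-PTCD1) share exons with NDUFC2 and ATP5MF.

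The 13 mitochondrial-encoded genes were among those with the highest values in the cells. MT-CO2 and MT-CO1, core subunits of complex IV, were the highest in EV with 7602 ± 165 and 7443 ± 942 FPKM (mean ± SD, n = 3), and their ranges overlapped. MT-ATP8 (6046 ± 565), MT-CO3 (5515 ± 203) and MT-ATP6 (5080 ± 319) followed, and MT-ATP8 overlapped with both neighbours, MT-CO1 and MT-CO3. The complex I genes MT-ND4 and MT-ND4L came next, at 3814 ± 516 and 3220 ± 336, and their ranges overlapped. MT-CYB, the mitochondrial-encoded subunit of complex III, was at 1814 ± 140, with MT-ND5 (1710 ± 324), MT-ND3 (1531 ± 82.6), MT-ND1 (1345 ± 57.8) and MT-ND2 (1221 ± 178) below it. Among these, MT-CYB and MT-ND5, MT-ND5 and MT-ND3, and MT-ND1 and MT-ND2 overlapped. MT-ND6 was the lowest at 360 ± 28.0 FPKM, and it is the one member transcribed from the opposite strand. Its mRNA is known to lack a poly(A) tail, so its level in poly(A)-selected libraries cannot be set beside those of the other mRNAs.

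**Figure D2:**
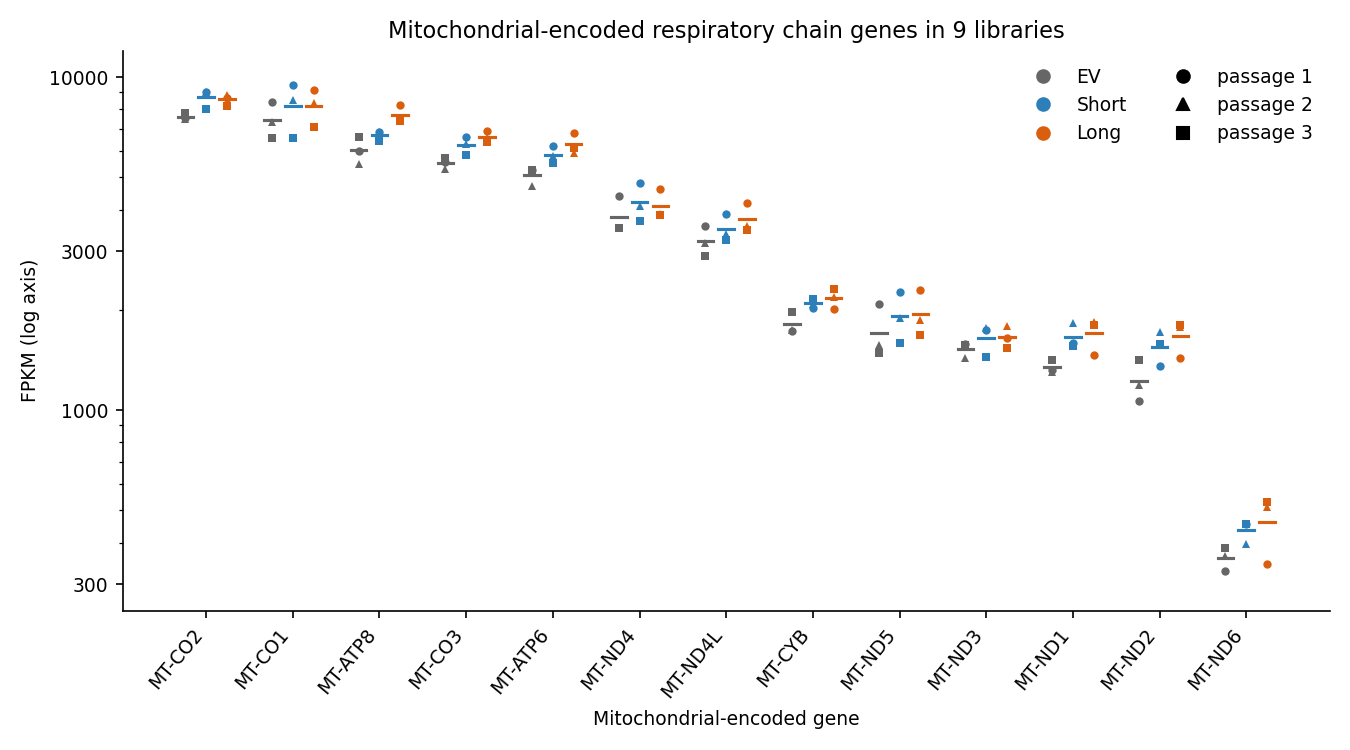
FPKM (log axis) of the 13 mitochondrial-encoded genes in each library, in the order of their mean over the 9 libraries. Colours mark the transfection, symbols the passage and short lines the mean of 3 libraries. MT-ND6, whose mRNA is known to lack a poly(A) tail, lies below the other 12 genes, and the Long libraries of MT-ATP8 lie above all EV and Short libraries.

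On the mitochondrial chromosome (16569 bases in the GRCh37 build), 2 pairs of members overlap on the same strand by several bases. MT-ATP6 also ends at base 9207, where MT-CO3 starts. The following stretches are shown because fragments from the overlap can belong to either gene. The first is the end of MT-ATP8 and the start of MT-ATP6 (chrM:8507-8592, plus strand), and the second is the end of MT-ND4L and the start of MT-ND4 (chrM:10740-10786, plus strand). Capitals mark the bases annotated to both genes, with 20 bases on each side.
MT-ATP8 and MT-ATP6: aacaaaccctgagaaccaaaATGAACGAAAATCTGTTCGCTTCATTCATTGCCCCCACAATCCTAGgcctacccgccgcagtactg
MT-ND4L and MT-ND4: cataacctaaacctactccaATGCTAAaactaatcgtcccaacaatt
The overlap is 46 bases in the first pair, 22.2% of the 207 bases of MT-ATP8, and 7 bases in the second, 2.36% of the 297 bases of MT-ND4L. How the deposited values divided these fragments is not given in the sources used here. The levels of the 2 genes within each pair are therefore not independent.

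Nuclear DNA also holds copies of mitochondrial sequence. The table lists 360 such genes, which together measured 287 to 302 FPKM in EV, 295 to 341 in Short and 339 to 402 in Long. Most of it was MTCO3P12, a copy of MT-CO3 on chromosome 1, which averaged 284 FPKM. MTCO3P12 was higher in Long than in EV by 0.30 on the log2 scale (SE 0.0777, limma adjusted p = 0.0429). Fragments that match both copies cannot be assigned with certainty, and whether MTCO3P12 carries its own transcripts or fragments of mitochondrial mRNA was not tested.

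The question put to the members was whether the mitochondrial-encoded and nuclear-encoded mRNAs moved alike after transfection of each isoform. Values were compared within passages as log2(FPKM + 1) in a limma fit that had the passage as a blocking term, with Benjamini-Hochberg adjustment over all 13801 genes. A member is called higher or lower when its adjusted p was under 0.05.

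Most of the members called in Long against EV were mitochondrial-encoded. Of the 103 members tested, 12 were higher and 1 was lower in Long, and 9 of the 12 were mitochondrial-encoded. Among all genes 1.99% were called higher, 6.33% lower and 8.32% either way. With FPKM rescaled to a common sum (TPM), the genes called higher and lower over the whole table went from 275 and 873 to 57 and 1222, while the members gave 7 higher, all mitochondrial-encoded, and 1 lower.

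Complex I contributed 4 of these 9 genes. MT-ND2 measured 1063, 1186 and 1414 FPKM in EV and 1434, 1781 and 1802 in Long in passages 1, 2 and 3. All Long libraries lay above all EV libraries, by 0.46 on the log2 scale (SE 0.0583, 1.37-fold, limma adjusted p = 0.00884). MT-ND1 was at 1322, 1302 and 1411 in EV and 1467, 1841 and 1797 in Long, again without overlap (0.33, SE 0.0697, adjusted p = 0.0190). MT-ND4L and MT-ND5 were higher by 0.22 (SE 0.0325) and 0.19 (SE 0.0407), with overlapping groups but a higher Long value in each of the 3 passages.

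MT-CYB rose from 1729, 1737 and 1975 FPKM in EV to 2009, 2185 and 2306 in Long (0.26, SE 0.0387, adjusted p = 0.00916), and the groups did not overlap. For complex IV, MT-CO3 rose from 5545, 5299 and 5702 to 6901, 6562 and 6366 (0.26, SE 0.0435, adjusted p = 0.00970). MT-CO2 rose from 7527, 7488 and 7792 to 8674, 8847 and 8204, a smaller difference of 0.17 (SE 0.0436, adjusted p = 0.0368). In both genes every Long library was above every EV library. MT-CO2 and MT-ND5 were not called with TPM, with median ratios or with a common sum without the mitochondrial chromosome.

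The ATP synthase pair gave similar differences. MT-ATP6, the membrane subunit of the proton channel, measured 5271, 4712 and 5257 FPKM in EV and 6815, 5914 and 6119 in Long (0.31, SE 0.0440, adjusted p = 0.00884). MT-ATP8 measured 6007, 5501 and 6629 in EV and 8229, 7431 and 7393 in Long (0.35, SE 0.0609, 1.27-fold, adjusted p = 0.0109). Neither pair of groups overlapped. The other 4 mitochondrial-encoded genes were also higher on average and were not called. Their differences were 0.34 (SE 0.111) for MT-ND6, 0.14 (SE 0.0413) for MT-CO1, 0.11 (SE 0.0376) for MT-ND4 and 0.11 (SE 0.0687) for MT-ND3, with limma adjusted p-values of 0.0924, 0.0694, 0.0963 and 0.340.

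**Figure D3:**
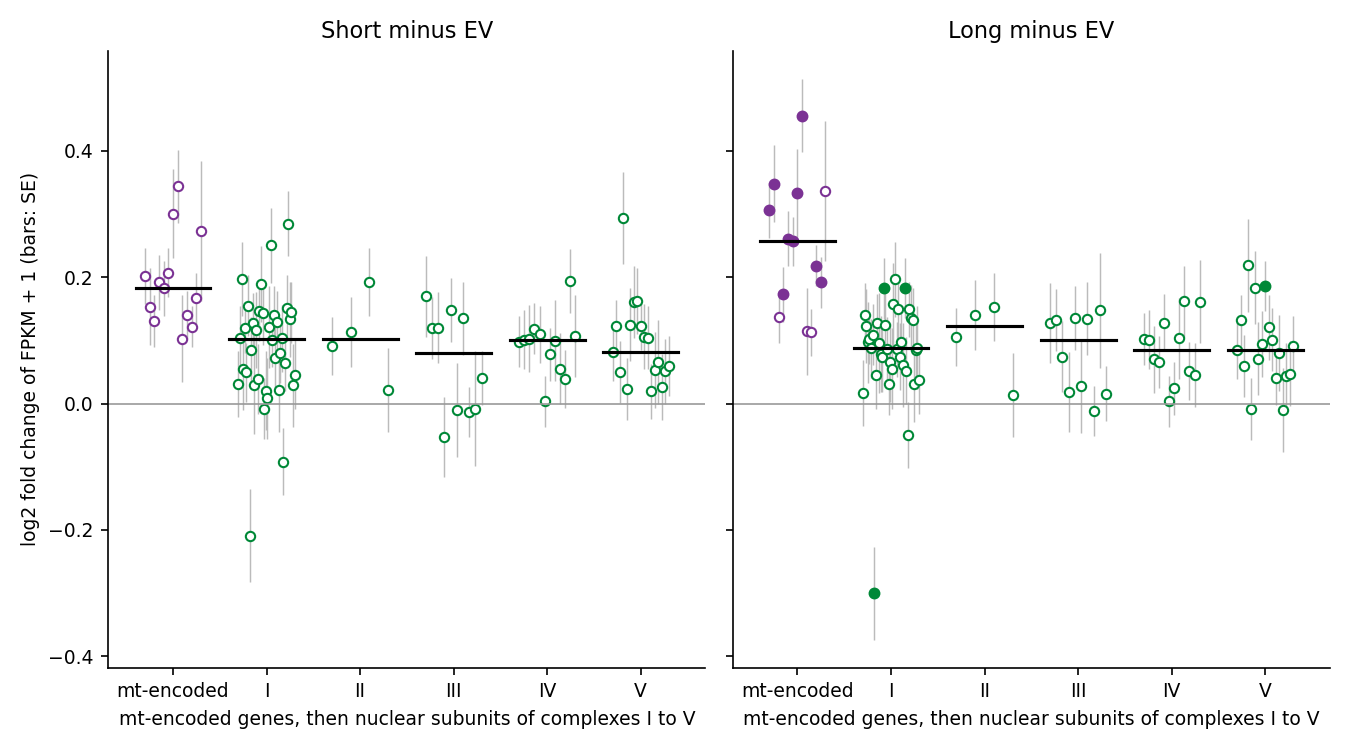
Log2 fold change of FPKM + 1 with its standard error of the tested genes in Short against EV (left) and Long against EV (right), with mitochondrial-encoded genes in purple and nuclear-encoded subunits of each complex in green. Filled points have a limma adjusted p under 0.05, and black lines are the median of each column, 0.18 on the left and 0.26 on the right for the mitochondrial-encoded genes, against 0.10 and 0.089 over all nuclear-encoded subunits.

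All 13 mitochondrial-encoded genes had a positive log2 fold change in Long against EV, as did 60.7% of all genes. Of the 13, 12 were higher in each of the 3 passages, against 27.4% of all genes, and 7 had groups that did not overlap with Long higher, against 10.5%. Of the 79 nuclear-encoded subunits, 40 were higher in each passage and 15 had groups that did not overlap with Long higher. The median over the 13 was 0.26, and it was 0.20, 0.32 and 0.19 in passages 1, 2 and 3, with a median of 0.039 over all genes tested. The number of members called rested on the pairing and on single passages. It was 0 without the replicate block (adjusted p of 0.637 for 7 of the 9 mitochondrial-encoded genes called), 0 without passage 1 and 1, MT-ND2, without passage 2. Over all genes 1148 were called in the main fit, 2 without the block, 2 without passage 1 and 100 without passage 2. All 13 mitochondrial-encoded genes kept a positive fold change in each of these fits.

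In Short cells the mitochondrial-encoded mRNAs were also higher on average than in EV. None of the 103 members was called, where 0.0362% of all genes were, and the lowest limma adjusted p was 0.110. At an unadjusted p under 0.05, 44 members were higher and 1, NDUFA5, was lower, 12 of the 44 being mitochondrial-encoded, against 15.2% and 6.88% of all genes. MT-ND2 measured 1352, 1711 and 1575 FPKM in Short (0.34 above EV, SE 0.0583), MT-ND1 1595, 1828 and 1557 (0.30, SE 0.0697) and MT-ATP6 6204, 5812 and 5514 (0.20, SE 0.0440), the first overlapping with EV and the other two not. The 13 genes had a median of 0.18, with 0.23, 0.27 and 0.076 in passages 1, 2 and 3. All 13 were positive, against 61% of all genes, 11 were higher in each passage, against 32%, and 6 did not overlap with EV, against 10.9%. Of the 79 nuclear-encoded subunits, 46 were higher in each passage and 17 had groups that did not overlap with Short higher. Passage 3 gave the smallest differences, and without it 6 members were called, all mitochondrial-encoded: MT-ND2, MT-CO1, MT-CO2, MT-CO3, MT-ATP6 and MT-ATP8. Over all 13801 genes 59 were called in that fit, 16 higher and 43 lower, and 5 in the main fit. Short and Long were compared with the same EV libraries, so their differences are not independent.

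The direct comparison of the isoforms showed no member past the threshold, where 0.00725% of all genes were. The lowest limma adjusted p was 0.547. At an unadjusted p under 0.05, 3 members were higher in Long (MT-ND4L, MT-ATP6 and MT-ATP8) and 2 were lower (NDUFS7 and COX8A), against 1.61% and 5.93% of all genes. MT-ATP8 was the only mitochondrial-encoded gene whose groups did not overlap, with 6829, 6862 and 6433 FPKM in Short against 8229, 7431 and 7393 in Long (0.19, SE 0.0609, adjusted p = 0.547), where 1.92% of all genes did not overlap with Long higher. The mitochondrial-encoded genes had a median of 0.050 and 11 of 13 were positive, but the median was -0.012, 0.025 and 0.10 in passages 1, 2 and 3, and without passage 3 it was -0.0035 with 6 of 13 positive. In the fit over all passages the nuclear-encoded subunits had a median of 0.0016 with 41 of 79 positive, and all genes were positive in 41.2% of cases. NDUFS7, an iron-sulfur subunit of complex I, was at 96.3, 94.3 and 82.1 FPKM in Short and 80.5, 87.5 and 76.8 in Long (0.15 lower in Long on the log2 scale, with overlapping groups).

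The difference between the classes was taken as the median log2 fold change of the mitochondrial-encoded genes minus that of the nuclear-encoded subunits. It was 0.081 in Short against EV and 0.17 in Long against EV. Within passages 1, 2 and 3 it was 0.096, 0.16 and 0.044 for Short and 0.11, 0.21 and 0.13 for Long, so it was positive in each passage for both isoforms. Between Long and Short it was 0.048, with 0.025, 0.015 and 0.077 in the passages. These medians are over chosen genes and carry no p-value.

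Summed over the 13 genes, mitochondrial-encoded mRNA took 9.03%, 8.51% and 9.01% of the total FPKM in EV, 9.55%, 9.64% and 9.03% in Short and 10.2%, 9.80% and 9.58% in Long. Every Long library was above every EV and every Short library except that Short in passage 2 (9.64%) exceeded Long in passage 3. Within passages 1, 2 and 3 the share was higher in Long than in EV by 1.14, 1.29 and 0.568 percentage points, and higher in Short than in EV by 0.527, 1.13 and 0.0175. The nuclear-encoded subunits took 2.35% ± 0.0467 in EV, 2.37% ± 0.0576 in Short and 2.37% ± 0.0685 in Long (mean ± SD, n = 3), and the ratio of the sums was 3.77 ± 0.198, 3.98 ± 0.0965 and 4.15 ± 0.136. In these bulk libraries, more mitochondrial RNA per cell and more cells rich in it cannot be told apart. A share of a total also depends on the other genes in that total.

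**Figure D4:**
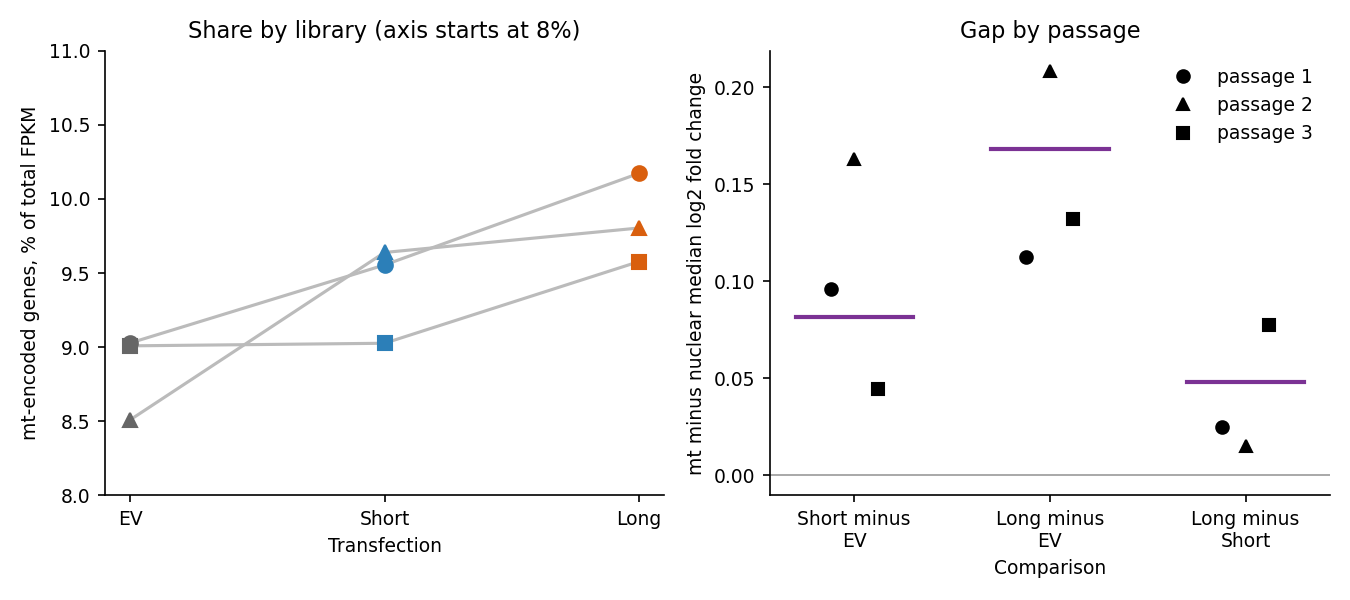
Left, share of total FPKM from the 13 mitochondrial-encoded genes in each library, with symbols for the passage and lines joining its libraries (the axis starts at 8%). Right, median log2 fold change of the mitochondrial-encoded genes minus that of the nuclear-encoded subunits in each passage, with the value of the fit over all passages as a line: the 3 passages are above 0 in each comparison.

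The mitochondrial ribosomal RNAs, which lie on the same strand as most members, had no call in either comparison with EV. MT-RNR2, the large ribosomal RNA, measured 4113, 3349 and 2738 FPKM in EV, 4112, 3589 and 2614 in Short and 3457, 2791 and 2684 in Long. The difference of Long from EV was -0.18 (SE 0.0618, limma adjusted p = 0.103). MT-RNR1, the small one, differed from EV by 0.15 in Short (SE 0.0506, adjusted p = 0.134) and 0.033 in Long (SE 0.0506, adjusted p = 0.740). Poly(A) selection catches only part of these RNAs, so their levels cannot be set beside those of the mRNAs. All 22 mitochondrial tRNA genes in the table were listed at 0 in every library.

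Among the 79 nuclear-encoded subunits tested, 3 were called higher and 1 lower in Long against EV. Of all genes 1.99% were called higher and 6.33% lower. ATP5ME (chr4:666225-668119, GRCh37), subunit e of the membrane part of ATP synthase, rose from 402, 425 and 385 FPKM in EV to 464, 474 and 441 in Long (0.19, SE 0.0390, limma adjusted p = 0.0190). NDUFB10 (chr16:2009539-2011976), an accessory subunit in the membrane arm of complex I, rose from 205, 190 and 208 to 243, 222 and 221 (0.18, adjusted p = 0.0440). In both genes the groups did not overlap. Neither was called with the 3 other scalings of the libraries (a common sum, a common sum without the mitochondrial chromosome, or median ratios).

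NDUFA5 (chr7:123177051-123197958) fell in Long, from 32.0, 29.9 and 44.2 FPKM in EV to 25.7, 23.1 and 37.4 (-0.30, SE 0.0734, limma adjusted p = 0.0325). It was 26.3, 28.8 and 35.6 in Short (-0.21, adjusted p = 0.146). Passage 3 was the highest in each group, so that the groups overlapped although every passage was lower. Its longest transcript has the lowest GC content of the nuclear-encoded subunits, 34.1%, and after a correction of each library for GC content its difference in Long was 0.068 and was not called. The call was also lost without any 1 of the 3 passages.

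As a set, the nuclear-encoded subunits differed little. The log2 fold changes of all those tested, called ones included, had a median of 0.089 in Long against EV, with 74 of 79 positive. In Short the median was 0.10, with 72 of 79 positive. These small positive values depended on scaling, because the FPKM of all genes summed to 527699 ± 12387 in EV, 559929 ± 28139 in Short and 556093 ± 11563 in Long (mean ± SD, n = 3). As TPM the median was 0.014 in Long with 47 of 79 positive and 0.017 in Short with 44 positive, whereas all 13 mitochondrial-encoded genes stayed positive with medians of 0.18 and 0.098. Over all genes tested the median moved from 0.039 to -0.028 in Long and from 0.041 to -0.033 in Short.

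By complex, the Long medians lay close together, at 0.088 for the 36 subunits of complex I, 0.12 for the 4 of complex II, 0.10 for the 10 of complex III, 0.086 for the 12 of complex IV and 0.085 for the 17 of complex V. The Short medians were 0.10, 0.10, 0.080, 0.10 and 0.082. Complex II, which has no mitochondrial-encoded subunit, had no call in either comparison, and neither had the nuclear-encoded subunits of complexes III and IV. Of all genes 8.32% were called in Long against EV and 0.0362% in Short against EV. SDHC was at 74.5, 78.5 and 74.1 FPKM in EV, 84.4, 94.8 and 81.2 in Short and 86.3, 91.5 and 75.7 in Long. SDHA and SDHB differed from EV by 0.11 and 0.14 in Long and SDHD by 0.013. CYC1 differed by 0.13 (adjusted p = 0.254).

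Some subunits without a call had the lowest p-values in Short. ATP5F1D, a subunit of the rotor stalk of ATP synthase, was at 55.0, 51.5 and 46.2 FPKM in EV and 63.5, 63.6 and 60.4 in Short (0.29, SE 0.0735). NDUFB7, an accessory subunit of complex I, was at 146, 155 and 148 in EV and 183, 181 and 171 in Short (0.25, SE 0.0592), and NDUFS7 at 77.4, 76.3 and 69.4 against 96.3, 94.3 and 82.1 (0.28, SE 0.0514). COX8A was at 365, 365 and 310 in EV and 415, 410 and 364 in Short. ATP5IF1, which blocks ATP hydrolysis by the synthase, was at 134, 143 and 149 in EV, 160, 161 and 163 in Short and 160, 159 and 158 in Long (0.16 in Long, SE 0.0471, adjusted p = 0.0615). All 5 had a limma adjusted p of 0.110 in Short. Of the 8 complex I assembly factors none was called, where 8.32% of all genes were in Long against EV and 0.0362% in Short against EV. NDUFAF5 was at 22.5 to 22.6 FPKM in EV, 23.5 to 23.7 in Short and 24.0 to 26.0 in Long, without overlap between groups (0.15 in Long, adjusted p = 0.152).

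The differences of nuclear-encoded subunits went with the GC content of their transcripts. Across the 79 subunits, Spearman's rho between GC content and log2 fold change was 0.585 in Short and 0.403 in Long, a description across genes that share their libraries. In the 19 subunits of lowest GC content (34.1% to 41.7%) the median was 0.029 in Short and 0.055 in Long, and in the 19 of highest (53.1% to 64.9%) it was 0.15 and 0.12, with no negative value. The mitochondrial-encoded genes have a median GC content of 44.3%, and after the GC correction their medians were 0.18 in Short and 0.24 in Long, with 6 called higher in Long. Over all genes tested, the same correction took the calls in Long against EV from 275 higher and 873 lower to 113 higher and 141 lower. The part of GC content in the single values was not tested beyond this correction.

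**Figure D5:**
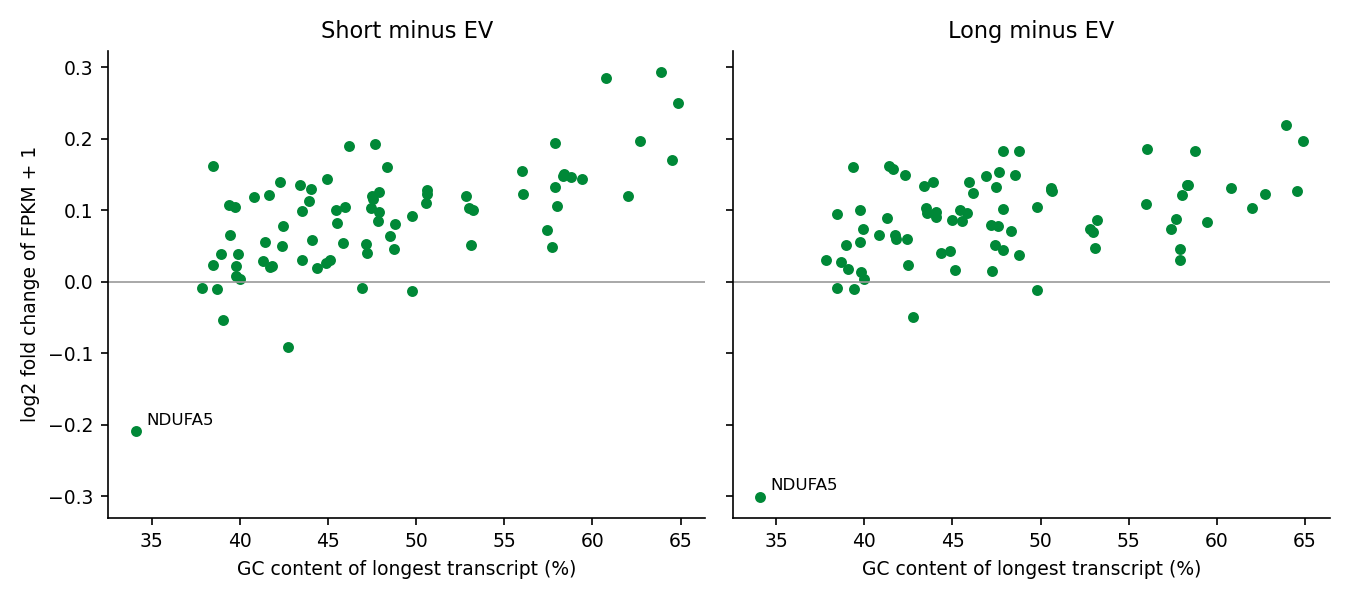
Log2 fold change of FPKM + 1 in Short against EV (left) and Long against EV (right) of the 79 tested nuclear-encoded subunits, against the GC content of the longest annotated transcript. Spearman's rho is 0.585 on the left and 0.403 on the right, and NDUFA5 lies lowest on both axes.

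Promoters of nuclear respiratory genes are known for binding sites of the factors NRF1 and GABP and, at some start sites, YY1. RefSeq promoters (GRCh38.p14, 250 bases before to 50 bases after the start) were found by symbol for 64 of the 79 tested subunits. The letters GCGCANGCG of the NRF1 motif, on either strand, were in 34.4% of them, against 15.2% of the promoters of tested protein-coding genes and 8.05% of all promoters. CCGGAAG, the core of the GABP motif, was in 31.2%, against 19.7% and 10.7%, and AAGATGGCG of the YY1 motif in 10.9%, against 4.12% and 1.85%. A TATAAA sequence was in 7.81%, 5.12% and 12.0%. These matches describe the windows and were not tested, and a match is not a bound site. The promoter of ATP5ME, the nuclear-encoded member with the lowest adjusted p in Long, is shown as an example, in GRCh38.p14 at chr4:674337-674526 on the minus strand, from base 250 to base 61 before the start. Capitals mark its 3 matches to the NRF1 letters, none of which overlaps another.
ATP5ME: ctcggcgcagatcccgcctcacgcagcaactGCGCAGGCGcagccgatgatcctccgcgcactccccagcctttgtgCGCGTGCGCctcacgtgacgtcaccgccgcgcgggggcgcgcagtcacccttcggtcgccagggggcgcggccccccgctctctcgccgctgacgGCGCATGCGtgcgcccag
The window of NDUFB10 held none of the 4 sets of letters.

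Of the genes that serve the respiratory chain, those called in Long against EV went in both directions, and their counts stand beside 1.99% of all genes called higher and 6.33% called lower. Among 27 genes of mitochondrial DNA and RNA handling, 1 was higher and 1 lower in Long, with a median of 0.031. These were 2 partners in mitochondrial tRNA processing, HSD17B10 (38.5, 41.8 and 47.1 FPKM in EV, 44.4, 48.1 and 54.4 in Long, 0.20, adjusted p = 0.0335) and TRMT10C (15.3, 16.1 and 23.0 in EV, 9.57, 10.8 and 19.0 in Long, -0.47, limma adjusted p = 0.00965). TFAM, which packages mitochondrial DNA and starts its transcription, was at -0.17 in Long (adjusted p = 0.196), the RNA polymerase POLRMT at 0.11 (adjusted p = 0.326) and the mRNA-stabilising protein LRPPRC at -0.27 (adjusted p = 0.0702). A further 33 assembly factors, outside the name rule, had no call and a median of 0.063. Of 74 mitochondrial ribosomal protein genes, MRPS2 (0.23, adjusted p = 0.0293) and MRPS18A (0.20, adjusted p = 0.0484) rose and MRPL42 fell (-0.39, adjusted p = 0.0290), with a median of 0.11.

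Of 11 regulators of respiratory genes, GABPA, the DNA-binding subunit of GABP, was called, and it fell in Long: 9.40, 8.84 and 13.7 FPKM in EV, 5.49, 6.97 and 11.7 in Short and 4.60, 4.52 and 10.6 in Long (-0.69, SE 0.115, limma adjusted p = 0.00965). Its longest transcript has a GC content of 36.7%. NRF1 differed by 0.13 and PPARGC1A by -0.18, with adjusted p-values of 0.393 and 0.281. Of 14 genes of the citric acid cycle and cytochrome c, citrate synthase (CS) rose (120 to 138 FPKM on average, 0.20, adjusted p = 0.0222) and SUCLA2 fell (29.6 to 21.1, -0.52, adjusted p = 0.0105). None of these lists had a call in Short against EV or in Long against Short, where 0.0362% and 0.00725% of all genes were called. The medians of the lists in Short ranged from 0.0165 to 0.11.

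The passages differed too, and the mitochondrial-encoded genes did not move together across them. Averaged over the 3 groups, MT-ND5 measured 2212, 1777 and 1585 FPKM in passages 1, 2 and 3, MT-CO1 9022, 8071 and 6737, and MT-ND4 4609, 3835 and 3687. MT-ND2 showed the opposite order, with 1283, 1559 and 1597, and so did MT-ND6 with 377, 424 and 457. The highest passage was 1.34 times the lowest for MT-CO1 and 1.05 times for MT-CO2. For MT-CO1, MT-ND4 and MT-ND5 this range exceeded the difference between Long and EV, and it was removed from the comparisons by the block.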

How the data were processed

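Libraries were stranded poly(A) RNA-seq of 9 HEK293 samples (EV, Short and Long, 3 each). The authors deposited FPKM per Ensembl gene and library, after read mapping to hg19 with TopHat (version 1.4.1). The submitters' processing notes also name Cufflinks. The use of strand in counting is not given in the sources used here. Symbols, positions, GC content and transcript length came from GENCODE on GRCh37. Members and gene lists were chosen with earlier results of these data known.

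Values were analysed as log2(FPKM + 1) in limma (version 3.58.1, R version 4.3.3) with an intensity trend. All 9 libraries and the 13801 genes averaging 1 FPKM or more entered 1 fit with group and replicate number, and p-values were adjusted over all genes by Benjamini-Hochberg. This scale understates changes of low genes. The script was tested on simulated data, with 50 genes changed in Long at each size. Of those changed by 0.25 on the log2 scale, 5 were called against EV, and of those changed by 0.5, 44 were. The pairing rests on the statement in the methods that each of the transfections was done in separate passages, with the number in the labels taken as the passage. Deviations from the group means correlated with a mean r of 0.552 between same-numbered libraries (0.327 to 0.813 over 9 pairs) and -0.256 between others. Deviations within a group cancel out, so a positive value for the former brings a negative one for the latter, which is no separate support. The p-values rest on the spread between these libraries that is left after group and replicate number are fitted, moderated over all genes.

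Named genes were all mitochondrial-encoded genes, the highest and lowest nuclear-encoded subunit of each complex, 5 nuclear members per comparison (those past the threshold with the largest fold change, filled up by the lowest p), tissue forms, SDHA to SDHD, CYC1, mitochondrial ribosomal RNAs, called genes of each list and TFAM, POLRMT, LRPPRC, PPARGC1A and NRF1. NDUFAF5 and the genes compared across passages were chosen after their values were seen. Counts, medians and shares over members carry no test. Spearman correlations used scipy (version 1.17.1). Alternatives covered scaling, pseudocount, filter, trend, block, samples in the fit, GC content, transcript length and each passage left out. A result among the named genes is not reported here.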

Additional observations from a re-analysis of the deposited data

How the results depend on the processing

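All 13 mitochondrial-encoded genes had a positive fold change against EV in Short and in Long under each of the 14 alternatives to the fit. The count of members called in Long against EV, 13, was 8 with TPM, 8 with median ratios, 8 with a common sum without the mitochondrial chromosome, 2 without the intensity trend, 0 with no filter on low values (27356 genes tested) and 0 without the replicate block, where 2 genes were called in the whole table. With 1 passage left out it ranged from 0 (without passage 1) to 13 (without passage 3). In Short against EV it ranged from 0 to 6 with 1 passage left out (6 without passage 3) and was 0 under the other alternatives. Between Long and Short, with 1 passage left out, the gap between the classes ranged from 0.0106 (without passage 3) to 0.0684, the median of the mitochondrial-encoded genes from -0.0035 (without passage 3) to 0.0875, and that of the nuclear-encoded subunits from -0.0141 (without passage 3) to 0.0191, with -0.0006 without passage 2. NDUFA5 in Long against EV was 0.0679 after the GC correction with the replicate block. Taken as a share of fragments (FPKM times length), on which EV averaged 2.47% against 8.85% as a share of FPKM, the mitochondrial-encoded share differed from EV by 0.296 percentage points in Long and 0.197 in Short (1.00 and 0.558 as a share of FPKM), and by 0.0999 in Long against Short (0.445). The scales have different baselines, so the sizes cannot be set side by side. The causes were not tested. Leaving out the replicate block changed no member's call in Short against EV or Long against Short. Absolute depth is unknown, so no counting error was computed.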
